A study of Mus musculus with 11 samples.

Results

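A clonally derived mouse cell line, 2xSCS2F10, was compared with stomach muscle of the same mouse strain. The line holds progenitors of interstitial cells of Cajal (ICC) of wild-type C57BL/6J mice, and the muscle is the gastric tunica muscularis of the same strain. By their titles, 5 of the 11 arrays of the series belong to this comparison, 3 of the line and 2 of the tissue. The cells were kept at 37 °C in NeuroCult proliferation medium for neural stem cells, to which 5% chick embryo extract was added, and no treatment is named for the tissue. The other arrays hold the line 2xSCS70, kept at 39.5 °C, and muscle of mice with the H-2Kb-tsA58 transgene, a temperature-sensitive SV40 large T antigen. They enter the fit and 1 comparison at the end. The ages of the mice and the number of animals behind a tissue array are not given in the sources used here. The line is 1 clone, so the clone, the culture, the cell type and any difference in sample preparation cannot be told apart in the differences described here.

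ICC pace the rhythm of gut muscle and carry the receptor Kit. They lie between smooth muscle cells and enteric nerves, pass slow waves to the muscle through gap junctions and carry nerve signals to it. The muscle wall also holds enteric neurons and glia, macrophages, vessels, PDGFRA-positive fibroblast-like cells and a mesothelial cover. Progenitors of ICC are described as cells with low Kit that carry Cd44, Cd34 and the receptors for insulin and IGF1, and Kit ligand from the muscle supports them. A bulk array cannot tell fewer cells of a type from less RNA per cell, so a lower level in the line says only that the line as a whole held less of that transcript.

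Each level is a log2 intensity for 1 probe set per gene. Each fold change is the line's mean minus the tissue's mean on that scale (n = 3 and n = 2 arrays), with its standard error (SE). The SE is limma's and uses the spread within the groups of all 11 arrays. It is therefore not the spread of these 5 arrays alone, and a gene that varied among the tsA58 arrays has a large SE. A gene was called higher or lower when limma's Benjamini-Hochberg adjusted p over all genes tested was below 0.05 and the change was at least 2-fold. Array medians lay between 4.69 and 4.84 here, and levels near or below them cannot be told from background. Replicate arrays correlated at 0.986 to 0.991 in the line and 0.982 in tissue. Hybridisation controls, which are spiked in equal amounts before hybridisation, averaged 9.33 to 9.90 on the line arrays and 10.77 to 10.96 on the tissue arrays. Poly-A controls, which are added to the RNA before labelling, averaged 4.90 to 5.11 on the line arrays, near the array median, and 8.52 and 8.04 on the tissue arrays. Both kinds of control thus split along the comparison, and the part of RNA labelling in the results was not tested. Setting the hybridisation controls equal moved the median of all genes by 1.23, so every change below is relative to the other genes of the same arrays. No scaling was set on the poly-A controls.

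Of 13285 genes tested, 4530 were called (34.1%). The line was higher in 2326 of them (17.5% of all tested) and lower in 2204 (16.6%), with a median log2 fold change over all genes of 0.12. Counts in gene lists below are to be read beside the shares of 17.5% and 16.6%. The balance depended on the scaling: cyclic loess gave 1611 higher and 2701 lower, and centring on the hybridisation controls 5148 higher and 723 lower. Line and tissue arrays did not overlap in 9984 of the 13285 genes, among them all 4530 called, so lack of overlap does not set a gene apart. Large changes were mostly losses, with 325 genes lower at least 16-fold and 48 higher by as much. Of the genes called lower, 904 were at or below the median on all 3 line arrays, and 199 of those called higher were so on both tissue arrays. A fold change that ends at background understates the difference.

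The 2 tissue arrays carried different passengers. The exocrine pancreas list, enzymes of acinar cells that lie beside the stomach, averaged 11.63 on tissue replicate 1 and 6.71 on replicate 2, against 4.32 to 4.40 on the line arrays. Carboxypeptidase A1 (Cpa1), a defining marker, read 10.40 and 4.80. Replicate 2 held genes of stratified squamous epithelium, which lines the forestomach of mice. The suprabasal keratin Krt13 read 3.79 on replicate 1 and 11.81 on replicate 2, and the cornified envelope protein Sprr3 read 4.47 and 11.26. Xist, the RNA of the inactive X chromosome, read 10.12 and 5.47, and 11.58, 11.73 and 11.60 on the line arrays. Replicate 1 thus carried pancreatic enzymes and Xist, and replicate 2 carried squamous genes and little Xist. In all, 26 genes tested were at least 4-fold higher in replicate 1 and 36 in replicate 2. Krt13, Sprr3 and Xist were chosen after their values were seen. Both arrays held the gastric mucosa list at a high level (10.02 and 9.90, against 4.96 to 5.22 on the line arrays), so the tissue labelled as muscle held RNA of mucosal genes. The smooth muscle list stood at 10.22 and 10.35, close to each other.

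**Figure D1:**
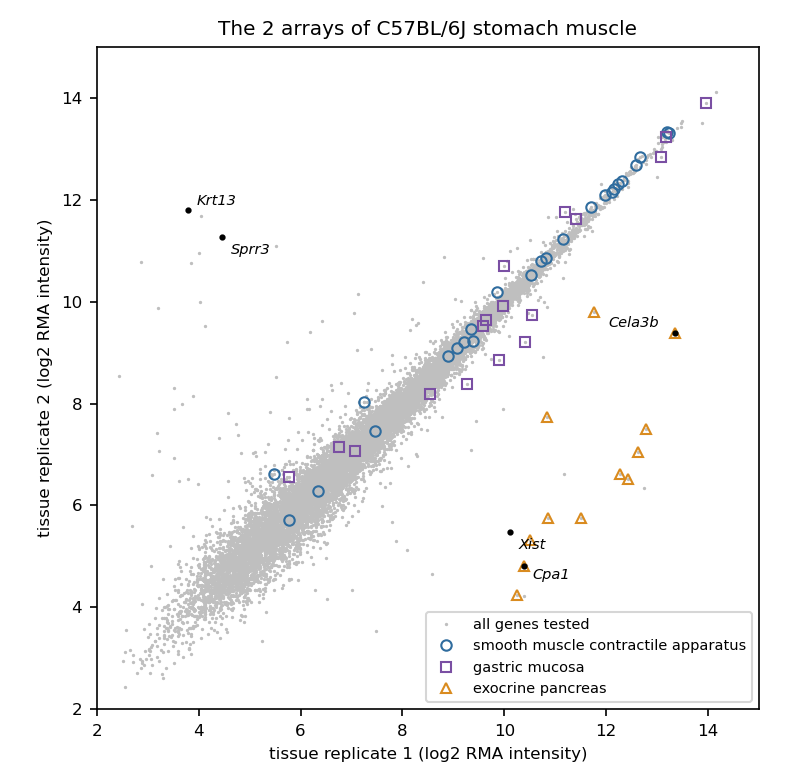
Log2 RMA intensity of each gene tested on C57BL/6J tissue replicate 1 (x axis) and replicate 2 (y axis). Contractile genes (circles) and most gastric mucosa genes (squares) lie near the diagonal, exocrine pancreas genes (triangles) lie on the side of replicate 1 (list means 11.63 and 6.71), and Krt13 (3.79 and 11.81) lies on the side of replicate 2.

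Among the 12 genes furthest up were secreted and surface proteins of activated stroma. Collagenase 3 (Mmp13) read 11.97, 11.61 and 11.46 in the line and 2.54 and 2.44 in tissue, a log2 fold change of 9.19 ± 0.25 (adjusted p = 3.25e-09). Both tissue levels lay under the array median, and the groups were far apart. The oxidised LDL receptor Olr1 (7.35 ± 1.09), the acute phase protein Saa3 (5.85 ± 1.20), the adhesion molecule Icam1 (5.55 ± 0.33) and the keratinocyte growth factor Fgf7 (5.43 ± 0.47) were higher. So were the type II cGMP-dependent kinase Prkg2 (5.70 ± 0.29) and the germ cell helicase Ddx4. Ddx4 read 8.48, 8.18 and 9.97 in the line and 2.51 and 2.93 in tissue (6.15 ± 0.48, adjusted p = 4.99e-06). The remaining 5, Timp1, Il6, Ptgs2, Serpinb2 and Cebpb, are described with their groups.

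Among the 12 genes furthest down, uncharacterised gene models passed over, 5 are genes of gastric epithelium. The milk-clotting protease chymosin (Cym) read 4.06, 4.30 and 4.19 in the line and 14.15 and 14.11 in tissue (-9.95 ± 1.95, adjusted p = 0.0018), and pepsinogen 5 (Pga5, -8.77 ± 1.09), Anxa10 (-8.68 ± 0.61), Gkn2 (-8.60 ± 0.40) and the secretory isomerase Agr2 (-7.86 ± 0.70) were lower too. Sptssb, a small subunit of the first enzyme of sphingolipid synthesis, was at -8.49 ± 0.77. The rest were the contractile genes Actg2 and Myh11, the matrix genes Sparcl1, Lum and Dpt, and Bex1, a small protein of neural cells (-7.89 ± 0.26).

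**Figure D2:**
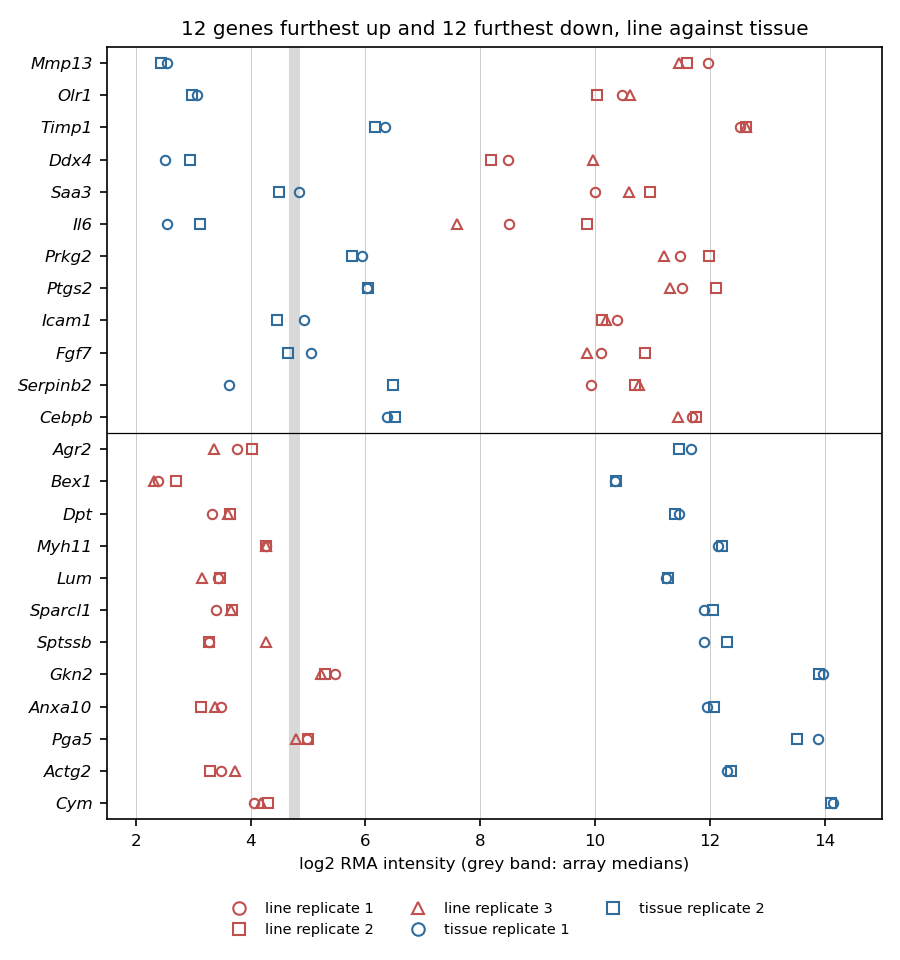
Log2 RMA intensity (x axis) of the 12 genes furthest up and the 12 furthest down in the line against tissue, 1 symbol per array; the grey band spans the medians of the 5 arrays. Line (red) and tissue (blue) symbols do not overlap for any of these genes, as for all 4530 genes called and 9984 of the 13285 tested. Serpinb2 has the widest gap between the tissue arrays (3.61 and 6.48).

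The contractile programme of smooth muscle was lower as a group. Of 25 contractile genes tested, 19 were called lower and 0 higher (76% lower, against 16.6% of all genes), with a median of -3.03 against 0.12 for all genes tested. Synemin (Synm), a large intermediate filament protein, read 3.53, 2.83 and 3.07 in the line and 10.52 and 10.53 in tissue (-7.38 ± 0.46, adjusted p = 1.02e-06). The actin-bundling protein Synpo2 read 3.74, 3.66 and 3.63 against 10.82 and 10.86 (-7.16 ± 0.19). Calponin (Cnn1), which binds actin and slows the myosin cycle, read 6.18, 5.25 and 6.54 against 11.71 and 11.85 (-5.79 ± 0.49), and so stayed above background in the line. Not all contractile genes were near background there. Alpha-smooth muscle actin (Acta2) read 11.24, 11.28 and 11.71 in the line against 13.23 and 13.30 in tissue (-1.86 ± 0.51, adjusted p = 0.0127), a call that ended without tissue replicate 1 (-1.89, adjusted p = 0.0608) or replicate 2 (-1.82, adjusted p = 0.0701). For Acta2 other probe sets ran from -4.43 to -0.12. Transgelin (Tagln) read 10.40, 10.38 and 10.89 against 12.58 and 12.67 and was not called (-2.07 ± 0.90, adjusted p = 0.0844). Its groups did not overlap, as in 9984 of the 13285 genes tested. When only the 5 C57BL/6J arrays were fitted, its adjusted p was 1.42e-04. Of the list, 10 members were at or below the array median on every line array and 0 on every tissue array.

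The CArG box, the site of serum response factor, was searched in promoters from RefSeq (GRCm38.p6, 250 bases before the start of each gene to 50 after it, both strands). Of the 25 contractile genes, 22 had a promoter sequence and 3 held the box, Myl9, Myl6 and Actc1 (13.6%, against 1.81% of 27025 genes with a promoter). Myl9, the regulatory light chain of smooth muscle myosin, was lower (-3.62) and is shown because its box lies in the window. The stretch is chr2:156775214-156775463 on the plus strand, the 250 bases before the start, with the box in capitals.
Myl9: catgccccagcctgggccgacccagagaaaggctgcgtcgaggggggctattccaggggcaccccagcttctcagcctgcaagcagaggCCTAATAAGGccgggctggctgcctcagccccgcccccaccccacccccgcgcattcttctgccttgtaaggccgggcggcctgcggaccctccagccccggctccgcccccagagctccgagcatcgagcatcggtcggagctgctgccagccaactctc
Actc1 was called lower and Myl6 was not (-0.57). Among genes with a promoter, 2.68% of those called lower and 1.6% of all tested held the box. A match is a description of these letters and not a measured site.

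Receptors and signalling proteins through which nerves relax or excite the muscle were lower in 11 of 18 and higher in 0 (median -1.53). The alpha subunit of the nitric oxide receptor guanylyl cyclase (Gucy1a1) read 2.79, 2.71 and 3.20 in the line and 9.48 and 9.58 in tissue (-6.63 ± 0.20, adjusted p = 5.61e-09). The cGMP kinase of smooth muscle, Prkg1, read 5.34, 4.54 and 5.10 against 9.14 and 8.98 (-4.06 ± 0.41). Its relative Prkg2 went the other way (11.47, 11.99 and 11.20 against 5.94 and 5.76). The endothelin receptor Ednrb was at -6.02 ± 0.23. In this list 15 members with a probe set were at or below the median on every line array.

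Ion channels and calcium pumps of the muscle and ICC network were lower in 10 of 21 and higher in 2 (median -0.99, which turned to 0.25 with centring on the hybridisation controls). The sulphonylurea receptor Abcc9 (3.19, 3.06 and 3.68 against 9.77 and 9.69) and its partner channel Kcnj8 (4.79, 4.74 and 5.16 against 9.98 and 9.79) form the ATP-sensitive potassium channel of smooth muscle, and both were lower (-6.42 ± 0.25 and -4.99 ± 0.25). Phospholamban (Pln), which restrains the calcium pump of the sarcoplasmic reticulum, was lower (-5.90 ± 0.20), and the pump itself, Atp2a2, was higher (1.22 ± 0.19). For Atp2a2 other probe sets ran from -0.72 to 1.58, and the mean of all its probe sets gave 0.43. Of 8 caveolar genes 3 were lower and 0 higher (median -0.85, 0.38 with that centring), with muscle caveolin Cav3 at -2.54 ± 0.33.

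Transcription factors of the stomach mesenchyme and its muscle were lower in 16 of 23 and higher in 3 (median -1.54). Myocardin (Myocd), the coactivator that drives smooth muscle genes, read 3.41, 3.12 and 3.69 in the line and 8.71 and 8.79 in tissue (-5.34 ± 0.46, adjusted p = 9.17e-06). Tcf21, a factor of visceral mesenchyme, read 3.08, 2.85 and 2.88 against 9.05 and 9.33 (-6.25 ± 0.20), and Barx1, which patterns the stomach, read 4.88, 5.17 and 4.66 against 9.14 and 9.05 (-4.19 ± 0.23). Myocd and Tcf21 were under the median on all line arrays, and Barx1 close to it. The other probe sets of Myocd and Tcf21 gave -0.52 and -0.13. Hand2 was also lower (-4.35 ± 0.83), though the mean of its probe sets was not called (-1.88, adjusted p = 0.055). Higher were the zinc finger factor Gata6 (10.01, 9.75 and 10.46 against 8.20 and 8.13, 1.91 ± 0.41) and Mrtfa, a coactivator of serum response factor (1.43 ± 0.25). For Gata6 other probe sets ran from -0.36 to 2.43. The third called higher, Zfhx3 (1.10 ± 0.38), lost its call without any 1 of the 5 C57BL/6J arrays (adjusted p from 0.0689 to 0.165).

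Of 9 ICC genes tested 7 were called lower and 0 higher (median -1.22, 0.02 with centring on the hybridisation controls). Kit, the receptor that defines mature ICC, read 3.35, 3.57 and 3.87 in the line, under the array median on each array, and 7.47 and 6.83 in tissue (-3.55 ± 0.37). Its other probe set gave -0.65. The chloride channel Ano1 read 6.02, 6.56 and 6.18 against 9.94 and 9.89 (-3.66 ± 0.37) and stayed above the median. The line thus lacked detectable Kit by this probe set, and kept some Ano1. The chloride importer Slc12a2 (-2.81 ± 0.25) and the receptor Gpr20 (-2.09 ± 0.27) were lower as well.

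Genes of ICC progenitors and their niche were mixed, with 1 of 8 higher and 3 lower (median -0.95, 0.28 with that centring). The hyaluronan receptor Cd44 was bright in both (10.72, 10.71 and 10.99 against 9.50 and 9.77, 1.17 ± 0.29), a call that ended without tissue replicate 1 (1.03, adjusted p = 0.0682) and fell under 2-fold with cyclic loess (0.97). Cd34, a sialomucin of progenitors and fibroblasts, read 9.17, 8.72 and 9.26 against 9.24 and 9.15 (-0.14 ± 0.35), so the groups overlapped. The insulin receptor (Insr) read 7.78, 7.89 and 7.67 against 7.97 and 7.23 and also overlapped (0.18 ± 0.44). The IGF1 receptor (Igf1r) read 7.77, 7.90 and 8.15 against 9.17 on both tissue arrays (-1.23 ± 0.35), a call that ended without tissue replicate 1 (-1.24, adjusted p = 0.0739) or replicate 2 (-1.23, adjusted p = 0.0746), and other probe sets reached 0.47. The 4 receptors were therefore all well above background in the line. Kit ligand (Kitl, 7.23, 6.89 and 7.57 against 10.22 and 10.32, -3.04 ± 0.26) and Thy1 (-2.82 ± 0.20), a surface glycoprotein of stroma and neurons, were lower. For Kitl other probe sets ran from -2.58 to 0.30. Pdgfra, the marker of interstitial fibroblast-like cells, read 8.50, 8.38 and 8.43 against 9.04 and 9.19 and was not called (-0.68 ± 0.62). Its other probe sets went the opposite way (0.31 and 0.81), and the mean of all of them gave 0.15.

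Markers of neurons, glia, macrophages and vessels were lower in the line, and many of them were at background there. Enteric neuron genes were lower in 15 of 16 (median -3.99), with the neuronal RNA-binding protein Elavl4 at 2.78, 2.54 and 2.74 against 8.70 and 8.85 (-6.09 ± 0.40). Glial genes were lower in 7 of 9, for example the ErbB3 receptor (Erbb3, -3.73 ± 0.33) and cadherin 19 (Cdh19, -2.85 ± 0.27). Of 12 endothelial genes 6 were lower and 0 higher (median -1.01, 0.22 with centring on the hybridisation controls), with the tight junction protein Cldn5 at -2.61 ± 0.27, and 7 members were at or below the median on every line array. Gastric mucosa genes were lower in 15 of 17 and exocrine pancreas genes in 6 of 12. The pancreas count was 3 without tissue replicate 1 and 12 without replicate 2. Skeletal muscle genes were lower in 2 of 6, led by creatine kinase (Ckm, -2.93 ± 0.32), whose other probe set gave 0.43. The 1 blood gene tested, Alas2, was at -1.54 ± 0.29.

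Macrophage genes were lower in 13 of 15, with the mannose receptor Mrc1 at 3.76, 3.19 and 4.15 against 8.16 and 8.50 (-4.63 ± 0.30). The 2 exceptions were Cd14, a co-receptor for lipopolysaccharide (10.04, 9.72 and 9.29 against 6.73 and 6.78, 2.93 ± 0.40), and the lysosomal protein Cd68 (8.55, 7.67 and 7.53 against 5.67 and 6.06, 2.05 ± 0.43). Csf1r, the receptor that defines the lineage, was lower but above the median on every line array (7.96, 6.83 and 7.96 against 9.96 and 9.88, -2.34 ± 0.42). This call ended with the mean of its probe sets (-0.90, under 2-fold) and with centring on the hybridisation controls (-1.11, adjusted p = 0.162). Complement and clotting genes of stroma were lower in 6 of 11 and higher in 1, from coagulation factor XIII A (F13a1, -4.72 ± 0.43) and the C1 inhibitor Serping1 (-4.55 ± 0.54) to the protease C1s1, which was higher (1.93 ± 0.30).

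Of 11 mesothelial genes 1 was higher and 1 lower (9.09% higher, against 17.5% of all genes), with a median of -0.15 (1.08 with centring on the hybridisation controls). On the line arrays, the means of the neuron, glia and endothelial lists lay below the array median. Those of the ICC progenitor and caveolar lists were well above it. The mesothelial list also stayed well above background in the line. The list averaged 9.60, 9.31 and 10.03 on the line arrays and 9.27 and 9.42 on the tissue arrays, and 0 members were at or below the median on every line array. Uroplakin 3b (Upk3b), a defining marker, read 12.32, 12.18 and 12.29 in the line and 9.97 and 10.18 in tissue. Mesothelin (Msln) read 9.79, 9.68 and 10.01 against 8.85 and 9.16, and Upk1b read 10.93, 10.68 and 10.90 against 9.03 and 9.27. In these 3 genes every line array was above both tissue arrays, but none was called (2.19 ± 0.98, 0.82 ± 0.39 and 1.69 ± 0.77; adjusted p = 0.0899, 0.107 and 0.0959). Groups without overlap were found in 9984 of the 13285 genes tested. With only the 5 C57BL/6J arrays in the fit, Upk3b and Upk1b were called (adjusted p = 3.11e-05 and 1.48e-04). The Wilms tumour factor Wt1 was called higher (10.48, 10.06 and 10.71 against 7.17 and 6.95, 3.35 ± 0.60) and the simple keratin Krt8 lower (-2.90 ± 0.47). By markers, then, the line labelled as ICC progenitors had Kit at background by 1 probe set, and mesothelial genes mostly not called in either direction. The part of mesothelial cells in the other results was not tested.

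**Figure D3:**
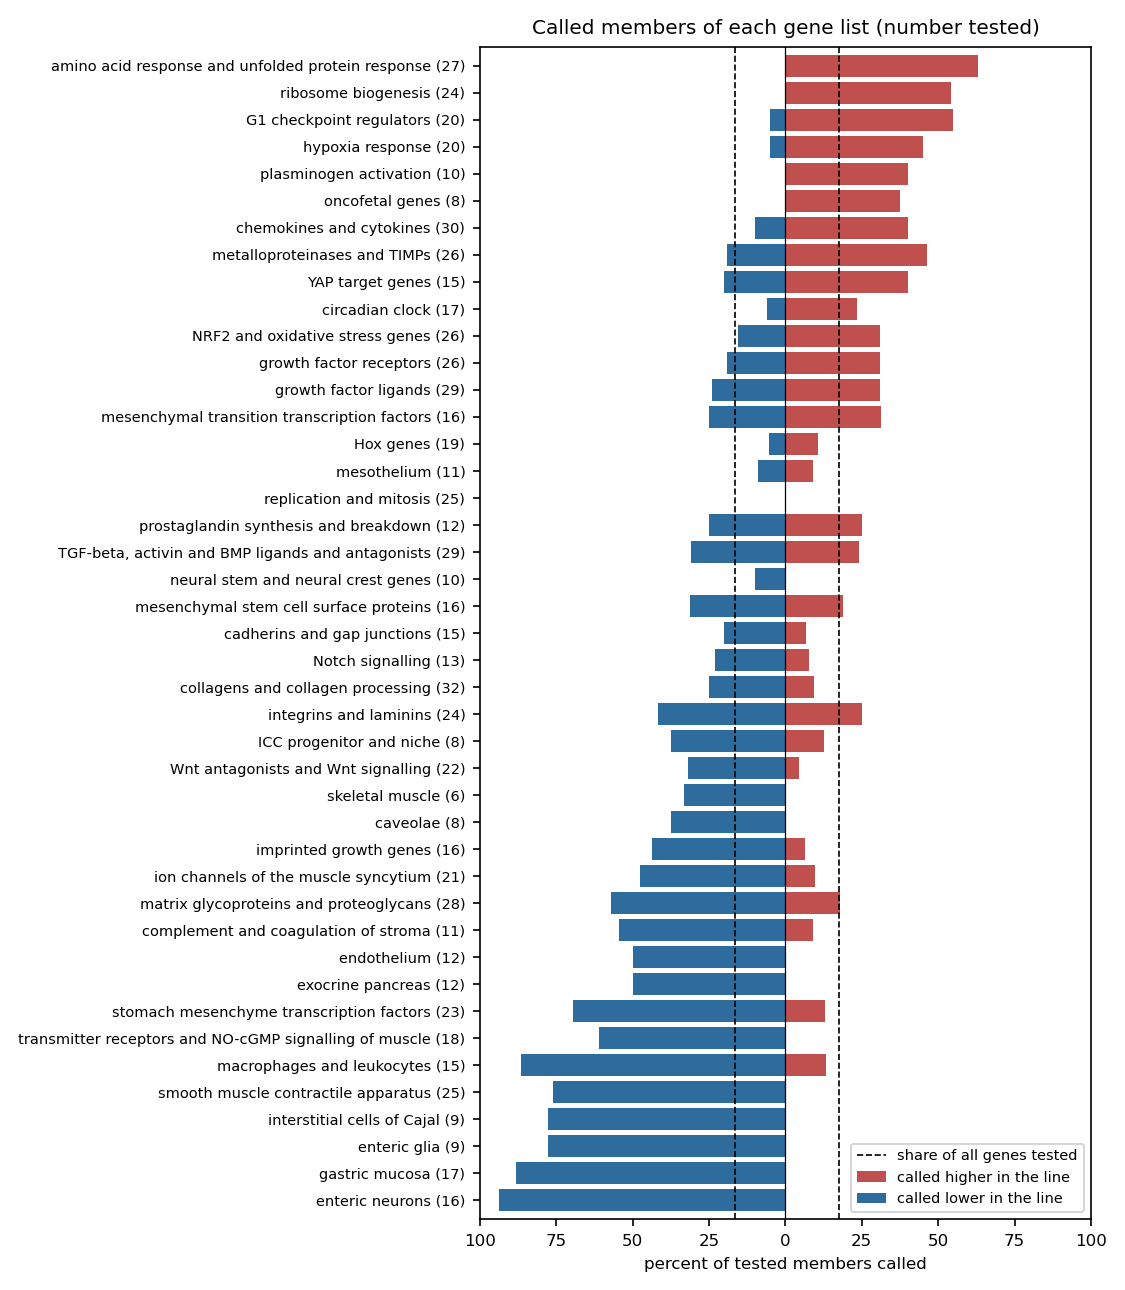
Percent of the tested members of each gene list called higher (red, to the right) or lower (blue, to the left) in the line, for lists with at least 4 members tested, whose number stands in brackets; dashed lines mark the shares of all genes tested, 17.5% higher and 16.6% lower. Lists of neurons, mucosa, glia, ICC and contractile genes lie at the bottom, and those of the amino acid response and ribosome biogenesis at the top.

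Several proteases that degrade matrix rose. Of 26 metalloproteinases and tissue inhibitors (TIMPs), 12 were higher and 5 lower (46.2% higher, median 1.04), and 6 were higher without tissue replicate 1. Stromelysin 2 (Mmp10) read 9.56, 8.56 and 9.01 in the line and 4.51 and 4.43 in tissue (4.57 ± 0.55). Stromelysin 1 (Mmp3) read 7.96, 7.43 and 7.92 against 3.38 and 3.75 (4.20 ± 0.54). With Mmp13, both had tissue levels under the array median. The inhibitor Timp1 read 12.52, 12.62 and 12.63 against 6.34 and 6.17 (6.34 ± 0.51), and Timp3, which binds to matrix, read 11.45, 11.76 and 11.74 against 9.43 and 9.48 (2.19 ± 0.27). Proteases and inhibitors rose side by side, while Reck, a membrane-anchored inhibitor, fell from 9.06 and 9.07 to 3.89, 3.21 and 3.44 (-5.55 ± 0.36). Also lower were the membrane protease Adam12 (-2.22 ± 0.52), Adam19 (-2.33 ± 0.30) and Mmp23 (-2.36 ± 0.48). The other probe set of Adam19 gave -0.39. Gelatinase A (Mmp2) was present in both (9.81, 10.33 and 9.68 against 8.90 and 9.004) and was not called (0.99 ± 0.44).

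The genes of the 3 risen proteases Mmp13, Mmp3 and Mmp10 lie within 1 stretch of chromosome 9, and each holds 1 AP-1 site, TGACTCA or on the other strand TGAGTCA, within 120 bases of its start. The site begins 35, 46 and 63 bases before the start, in that order. The 120 bases before each start are printed to set these sites side by side (RefSeq, GRCm38.p6, plus strand; chr9:7272394-7272513, chr9:7445702-7445821 and chr9:7502222-7502341), with the site in capitals.
Mmp13: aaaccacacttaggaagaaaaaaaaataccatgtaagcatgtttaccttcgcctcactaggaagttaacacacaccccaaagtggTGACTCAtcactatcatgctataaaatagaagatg
Mmp3: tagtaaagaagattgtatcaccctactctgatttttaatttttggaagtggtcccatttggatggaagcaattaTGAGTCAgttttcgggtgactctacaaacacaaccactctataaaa
Mmp10: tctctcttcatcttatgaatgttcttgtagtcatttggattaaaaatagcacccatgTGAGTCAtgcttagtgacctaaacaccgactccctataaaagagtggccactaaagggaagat
Of 16 genes of the list with a promoter, 4 held the site in the window of 300 bases, these 3 and Adam19, which was lower. That is 25%, against 5.95% of all genes with a promoter, and Timp1 had none of these letters in its window. Among genes with a promoter, 5.11% of those called higher and 4.75% of all tested held the site. Genes called higher thus held it about as often as genes tested.

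Plasminogen activation genes were higher in 4 of 10 and lower in 0 (median 0.68), but in 1 without tissue replicate 1. The endothelial protein C receptor Procr was firm (9.89, 9.75 and 9.84 against 5.95 and 5.88, 3.91 ± 0.38). Serpinb2, the plasminogen activator inhibitor of activated cells, read 9.93, 10.70 and 10.77 against 3.61 and 6.48 (5.42 ± 1.84, adjusted p = 0.0326). Its call ended without tissue replicate 1 (3.99, adjusted p = 0.225) and without any 1 of the line arrays (adjusted p from 0.0583 to 0.0751).

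Of 30 chemokines and cytokines 12 were higher and 3 lower (40% higher, median 0.59), and 11 members with a probe set were at or below the median on every line array. Interleukin 6 (Il6) read 8.50, 9.85 and 7.60 in the line and 2.54 and 3.12 in tissue (5.82 ± 1.02, adjusted p = 0.0009), a range of more than 4-fold among the line arrays. The monocyte attractants Ccl2 (10.59, 10.49 and 10.25 against 5.52 and 5.49, 4.94 ± 0.56) and Ccl7 (4.27 ± 0.72) and leukaemia inhibitory factor (Lif, 8.88, 9.12 and 8.75 against 3.90 and 4.66, 4.64 ± 0.41) also rose. Those that fell were Cxcl13 (-2.90 ± 0.65), which draws B cells, Il18 (-2.87 ± 0.83) and Il15 (-1.64 ± 0.44). Each of these calls ended without tissue replicate 1 (adjusted p = 0.0566, 0.057 and 0.0517), and those of Il18 and Il15 also without replicate 2 (0.0928 and 0.07). Il18 lost its call without line replicate 2 as well (0.0502).

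Of 12 prostaglandin genes 3 were higher and 3 lower (25% each, against 17.5% and 16.6% of all genes). The higher ones are on the side of synthesis, and the lower ones include an enzyme of breakdown, Hpgd. The lower ones other than Hpgd are not described here. Cyclooxygenase 2 (Ptgs2) read 11.51, 12.10 and 11.31 against 6.03 and 6.04 (5.61 ± 0.47), and prostacyclin synthase (Ptgis) read 11.16, 11.11 and 11.56 against 8.91 and 8.81 (2.42 ± 0.40). The phospholipase Pla2g4a, which frees arachidonic acid, was higher by 1.27 ± 0.28. The enzyme that inactivates prostaglandins, Hpgd, fell from 10.15 and 9.94 to 3.27, 3.01 and 3.22 (-6.88 ± 0.20, adjusted p = 4.46e-09), which is background.

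**Figure D4:**
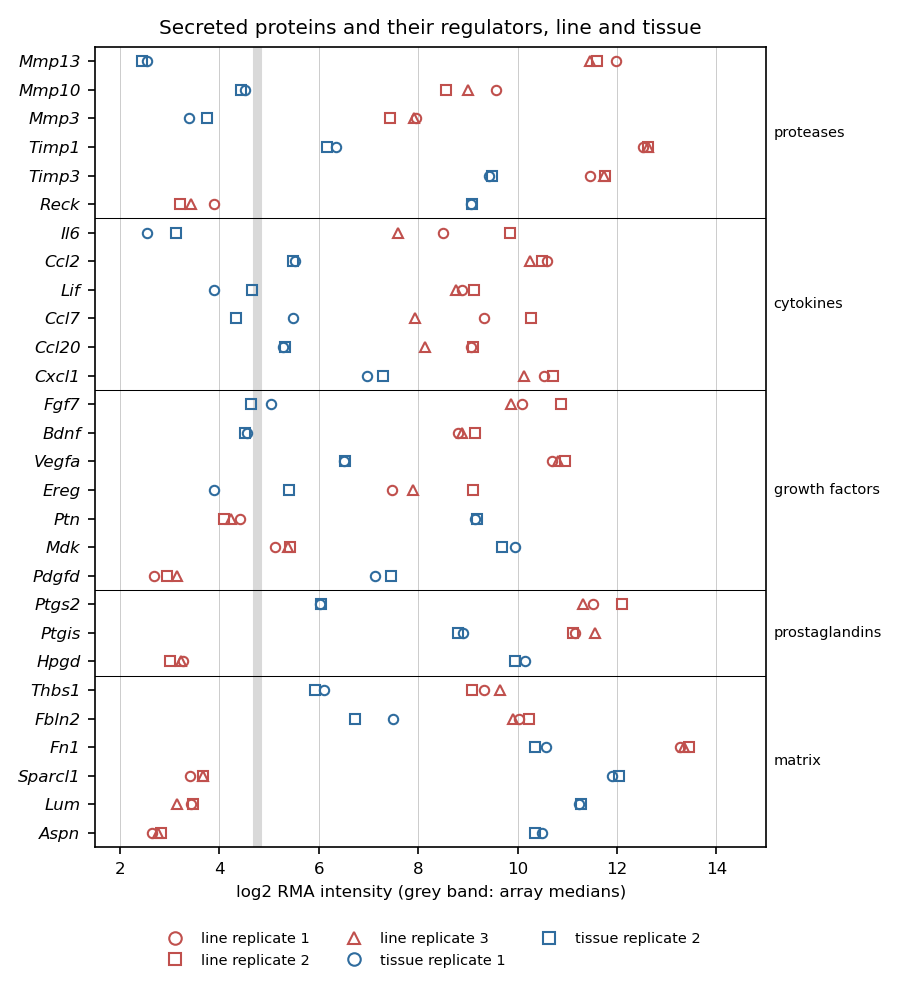
Log2 RMA intensity (x axis) of secreted proteins and their regulators on each array, grouped by role; the grey band spans the medians of the 5 arrays. Red line symbols and blue tissue symbols do not overlap in any row, as in 9984 of the 13285 genes tested. Mmp13 is near 12 in the line and 2.5 in tissue, and Hpgd near 3 and 10.

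Growth factor ligands moved both ways, with 9 of 29 higher, 7 lower and a median of -0.05 (1.18 with centring on the hybridisation controls). Brain-derived neurotrophic factor (Bdnf) read 8.80, 9.14 and 8.88 in the line and 4.55 and 4.51 in tissue (4.41 ± 0.23, adjusted p = 2.84e-07). Vascular endothelial growth factor A (Vegfa) read 10.68, 10.95 and 10.82 against 6.51 and 6.53 (4.30 ± 0.33), and the EGF receptor ligand epiregulin (Ereg) read 7.47, 9.10 and 7.90 against 3.88 and 5.39 (3.52 ± 0.53). The heparin-binding factors pleiotrophin (Ptn, 4.41, 4.09 and 4.23 against 9.14 and 9.18) and midkine (Mdk, 5.11, 5.42 and 5.38 against 9.95 and 9.69) fell together (-4.92 ± 0.42 and -4.52 ± 0.58), although for Ptn other probe sets ran from -7.38 to 0.04. PDGF-D (Pdgfd) was lower too (-4.37 ± 0.38).

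Their receptors were higher in 8 of 26 and lower in 5 (median 0.13, -0.13 with cyclic loess), and higher in 3 without tissue replicate 1. The ephrin receptor Epha2 (8.80, 8.74 and 9.04 against 6.03 and 5.63, 3.03 ± 0.28), the Gas6 receptor Axl (2.49 ± 0.24) and the EGF receptor (Egfr, 8.72, 9.09 and 8.30 against 6.62 and 6.69, 2.05 ± 0.24) were higher. Its ligand Ereg was thus higher in the same cells. Epha3 fell to background (2.66, 2.93 and 3.00 against 8.45 and 8.53, -5.63 ± 0.31), as did the Wnt receptor Ror2 (-2.90 ± 0.40).

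In the TGF-beta superfamily 7 of 29 genes were higher and 9 lower (median -0.18, 1.06 with that centring). The ligands Tgfb1 (9.08, 8.70 and 8.84 against 5.22 and 5.46, 3.53 ± 0.32) and Bmp4 (10.73, 10.87 and 10.39 against 7.92 and 8.09, 2.66 ± 0.39) rose, and so did the latent TGF-beta binding protein Ltbp2 (2.34 ± 0.26). Bmp2 fell (-3.01 ± 0.25) and so did the antagonists follistatin (Fst, -4.19 ± 0.35) and Chrdl1 (-4.22 ± 0.21). Id2, a target of BMP signals, read 4.93, 4.72 and 4.99 against 9.05 and 9.34 (-4.32 ± 0.19). Of 22 Wnt genes 7 were lower and 1 higher (median -0.33, 0.90 with centring on the hybridisation controls), with the antagonists Sfrp2 (-4.70 ± 0.48) and Dkk2 (-3.89 ± 0.54) and the agonist Rspo2 (-3.43 ± 0.32) all at background in the line. The other probe set of Rspo2 gave -0.04. The Wnt gene furthest down was another antagonist, Sfrp1 (4.51, 5.14 and 4.72 against 11.07 and 11.03, -6.26 ± 0.23). It was above the array median on 2 of the 3 line arrays. Of 13 Notch genes 3 were lower, the receptor Notch1 (-2.79 ± 0.62), its ligand Jag1 (-2.58 ± 0.33) and the target Hey2 (-3.38 ± 0.39), and the DNA-binding partner Rbpj was higher (1.77 ± 0.25). The shares were 23.1% lower and 7.69% higher, against 16.6% and 17.5% of all genes. The other probe sets of Notch1 and Jag1 gave -0.32 and -0.19. Target genes of the growth regulator YAP were higher in 6 of 15 and lower in 3 (median 0.89), led by Ankrd1 (6.88, 7.68 and 6.81 against 3.51 and 4.42, 3.16 ± 0.54) and Ccn1 (3.13 ± 0.48). For Ccn1 other probe sets ran from -0.58 to 3.81.

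Of 28 glycoproteins and proteoglycans 16 were lower and 5 higher (57.1% lower, median -2.44). Asporin (Aspn), a small collagen-binding proteoglycan, read 2.64, 2.83 and 2.76 in the line and 10.49 and 10.35 in tissue (-7.67 ± 0.18, adjusted p = 1.54e-09), and Sparcl1, an anti-adhesive relative of osteonectin, read 3.40, 3.67 and 3.67 against 11.90 and 12.05 (-8.40 ± 0.19). Fibronectin (Fn1), the adhesive protein of provisional matrix, rose from 10.58 and 10.35 to 13.27, 13.46 and 13.35 (2.89 ± 0.29). Thrombospondin 1 (Thbs1, 3.33 ± 0.70), fibulin 2 (Fbln2, 2.95 ± 0.33) and the hyaluronan synthase Has2 (2.37 ± 0.50) rose with it. Of 32 collagen genes 8 were lower and 3 higher (median 0.18), and 5 were lower without tissue replicate 2. Centring on the hybridisation controls turned this balance to 14 higher and 3 lower (median 1.42). Collagen VI alpha 3 (Col6a3, 4.40, 4.52 and 4.44 against 10.68 and 10.73, -6.26 ± 0.63) and collagen XIV (Col14a1, -5.97 ± 0.46) fell to background, while the lysyl oxidase Loxl3 rose (2.44 ± 0.47).

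Of 24 integrins and laminins 6 were higher and 10 lower (median 0.08, -0.12 with cyclic loess), which became 10 higher and 5 lower with centring on the hybridisation controls (median 1.32). The collagen receptor chain Itga1 read 4.24, 3.87 and 4.08 against 9.45 and 9.21 (-5.27 ± 0.24), and Itga8, a receptor of muscle and ICC matrix, was at -4.70 ± 0.31. The other probe set of Itga8 gave -0.88. Itga5, the fibronectin receptor chain, rose from 6.27 and 6.08 to 8.49, 8.20 and 8.85 (2.34 ± 0.56), and the laminin chain Lama5 rose by 2.26 ± 0.36. Of 15 cadherin and gap junction genes 3 were lower (1 without tissue replicate 2) and 1 higher. On all arrays these shares were 20% lower and 6.67% higher, against 16.6% and 17.5% of all genes. Desmoplakin (Dsp), the anchor of desmosomes, was at -7.78 ± 0.44 and was higher on tissue replicate 2 (10.79) than on replicate 1 (10.06).

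Hox genes record the position of a cell along the body axis. Of 19 Hox genes tested 2 were called higher and 1 lower (median 0.19, -0.10 with cyclic loess), shares of 10.5% and 5.26% against 17.5% and 16.6% of all genes. Hoxb6 read 8.72, 7.97 and 8.55 in the line and 6.45 and 6.60 in tissue (1.89 ± 0.37), Hoxb2 was at 1.27 ± 0.20 (0.96 with cyclic loess, under 2-fold) and Hoxc4 at -2.76 ± 0.29. Factors of mesenchymal transition were higher in 5 of 16 and lower in 4 (median 0.20, -0.10 with cyclic loess). Runx1 (7.99, 8.07 and 7.43 against 4.68 and 4.86, 3.06 ± 0.36) and Twist1 (7.65, 7.37 and 7.59 against 5.04 and 4.58, 2.73 ± 0.21) were the furthest up. Tcf4 was the furthest down (-1.95 ± 0.33). Snai2 overlapped (8.37, 9.07 and 8.12 against 9.04 and 9.21, -0.60 ± 0.62).

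Surface proteins used to sort mesenchymal stem cells were higher in 3 of 16 and lower in 5. That is 18.8% and 31.2%, against 17.5% and 16.6% of all genes, so the share of gains was near that of all genes. Vcam1, an adhesion molecule for leukocytes, read 12.08, 12.25 and 12.08 against 7.94 and 8.12 (4.10 ± 0.44), and Icam1 read 10.38, 10.13 and 10.20 against 4.92 and 4.46. The transporter Abcg2, which defines dye-excluding side populations, was higher (1.63 ± 0.40). Prom1, a stem cell antigen also made by epithelia, fell to background (3.28, 3.11 and 3.29 against 9.99 and 9.86, -6.70 ± 0.36), and so did Cd200 (-5.28 ± 0.52). Of 10 neural stem and crest genes 0 were higher and 1 was lower, the fatty acid carrier Fabp5 (-3.01 ± 0.53), in cells grown in a neural stem cell medium. The share lower was 10%, against 16.6% of all genes.

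Of 16 imprinted growth genes 7 were lower and 1 higher (median -0.93, 0.30 with centring on the hybridisation controls). The zinc finger factor Plagl1, which heads this network, read 3.68, 4.21 and 3.41 against 11.37 and 11.41 in tissue (-7.62 ± 0.36, adjusted p = 1.39e-07), with its other probe set at -1.37. Mest (-5.57 ± 0.54) and the growth suppressor Ndn (-4.73 ± 0.45) were lower too. Oncofetal genes were higher in 3 of 8 and lower in 0. The chromatin protein Hmga2 read 11.85, 11.72 and 11.85 against 7.38 and 6.78 (4.73 ± 0.37), and Myc read 9.49, 9.89 and 9.31 against 6.33 and 6.13 (3.33 ± 0.33).

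The list with the largest share of gains was that of the amino acid response and the unfolded protein response. Of its 27 genes 17 were higher and 0 lower (63% higher, median 1.61). C/EBP beta (Cebpb), a partner of ATF4 and a driver of inflammatory genes, read 11.69, 11.75 and 11.44 in the line and 6.37 and 6.51 in tissue (5.19 ± 0.28, adjusted p = 3.92e-07). The glutathione-degrading enzyme Chac1 read 10.61, 11.25 and 8.23 against 5.12 and 5.55 (4.70 ± 0.78). The pseudokinase Trib3 read 9.39, 10.70 and 7.47 against 5.57 and 5.30 (3.76 ± 0.87). The stress factor Ddit3 read 11.31, 11.96 and 9.48 against 7.42 and 7.41 (3.50 ± 0.66). In the last 3 genes line replicate 3 was lowest by more than 2-fold, and it still lay above both tissue arrays.

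Promoters of this list held TGATG, any base and then AA, the core of the amino acid response element, in 7 of 24 genes (29.2%, against 4.51% of all genes with a promoter; both strands). Among genes with a promoter, 3.04% of those called higher and 2.75% of all tested held it. This motif was chosen after the values had been seen, and the list was drawn from known targets of the pathway. Asns, Chac1, Slc7a11 and Trib3 held it and were called, Asns not without tissue replicate 2 (1.52, adjusted p = 0.0701), and Atf3, Herpud1 and Vldlr held it and were not. The Chac1 promoter is shown as the gene with the largest change among them (chr2:119350992-119351241, GRCm38.p6, plus strand, the 250 bases before the start), with the element in capitals as it reads on this strand.
Chac1: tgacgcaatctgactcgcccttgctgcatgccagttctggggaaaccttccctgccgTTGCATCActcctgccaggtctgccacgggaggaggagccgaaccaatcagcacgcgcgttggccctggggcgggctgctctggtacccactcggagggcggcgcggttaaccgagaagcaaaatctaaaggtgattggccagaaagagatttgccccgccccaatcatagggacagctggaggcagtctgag
The element begins 193 bases before the start.

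Ribosome biogenesis genes were higher in 13 of 24 and lower in 0 (median 1.06). The polymerase I subunit Polr1a read 8.50, 8.77 and 8.58 against 6.27 and 5.79 (2.59 ± 0.19) and the nucleolar phosphoprotein Nolc1 read 8.96, 9.75 and 8.83 against 6.44 and 6.65 (2.64 ± 0.27). Oxidative stress genes under NRF2 were higher in 8 of 26 and lower in 4. Haem oxygenase (Hmox1, 10.85, 10.57 and 9.46 against 5.53 and 5.96, 4.55 ± 0.50) and sulphiredoxin (Srxn1, 3.15 ± 0.26) were higher, while quinone reductase (Nqo1, 7.14, 6.85 and 7.23 against 9.85 and 10.04, -2.87 ± 0.49) and the glutathione transferase Gsta4 (-2.94 ± 0.41) were lower. Known NRF2 targets therefore went both ways. Hypoxia genes were higher in 9 of 20 and lower in 1 (median 0.78), for example the oxidase Ero1a (11.73, 11.94 and 11.85 against 8.33 and 8.50, 3.43 ± 0.27) and the collagen hydroxylase P4ha1 (3.09 ± 0.32). Circadian genes were higher in 4 of 17 and lower in 1, and higher in 2 without tissue replicate 2. On all arrays the shares were 23.5% higher and 5.88% lower, against 17.5% and 16.6% of all genes. Bhlhe40, a repressor that links clock and stress, read 10.95, 10.75 and 10.82 against 7.58 and 7.71 (3.20 ± 0.35).

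Regulators of the G1 checkpoint were higher in 11 of 20 and lower in 1 (55% higher, median 1.16), and higher in 7 without tissue replicate 2. The inhibitor genes Cdkn2b (9.06, 9.16 and 9.08 against 6.29 and 5.50) and Cdkn2a (6.59, 6.24 and 7.16 against 3.07 and 3.22) rose. So did the gene of the kinase Cdk6 (10.16, 10.10 and 10.59 against 8.16 and 8.19, 2.10 ± 0.47). The retinoblastoma gene Rb1 was lower (-1.61 ± 0.35). Of 25 genes of replication and mitosis 0 were called in either direction (median -0.00, -0.32 with cyclic loess, 1.23 with centring on the hybridisation controls) by limma, against 1 higher and 2 lower at an unadjusted p under 0.05; with only the 5 C57BL/6J arrays fitted, 1 was called higher and 3 lower. The proliferation antigen Mki67 read 7.42, 6.90 and 8.56 in the line and 10.06 and 9.99 in tissue (-2.39 ± 1.12, adjusted p = 0.104), so each line array lay below both tissue arrays. Such a lack of overlap was found in 9984 of the 13285 genes tested.

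The 3 line arrays differed among themselves in these programmes. Replication genes averaged 7.35, 7.17 and 8.34 on line replicates 1, 2 and 3, and 24 of 25 were highest on replicate 3, against 41.3% of all genes tested. Amino acid response genes averaged 9.34, 9.85 and 8.80, and 21 of 27 were highest on replicate 2 (33% of all genes) and 21 were lowest on replicate 3 (30.5% of all genes). The array with the highest mean of replication genes was therefore the one with the lowest mean of amino acid response genes. Ribosome biogenesis genes were highest on replicate 2 in 21 of 24, and hypoxia genes highest on replicate 3 in 15 of 20. In all, 38 genes tested spanned at least 4-fold over the line arrays. This pattern was noticed in the data and is a description of 3 arrays without a test.

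**Figure D5:**
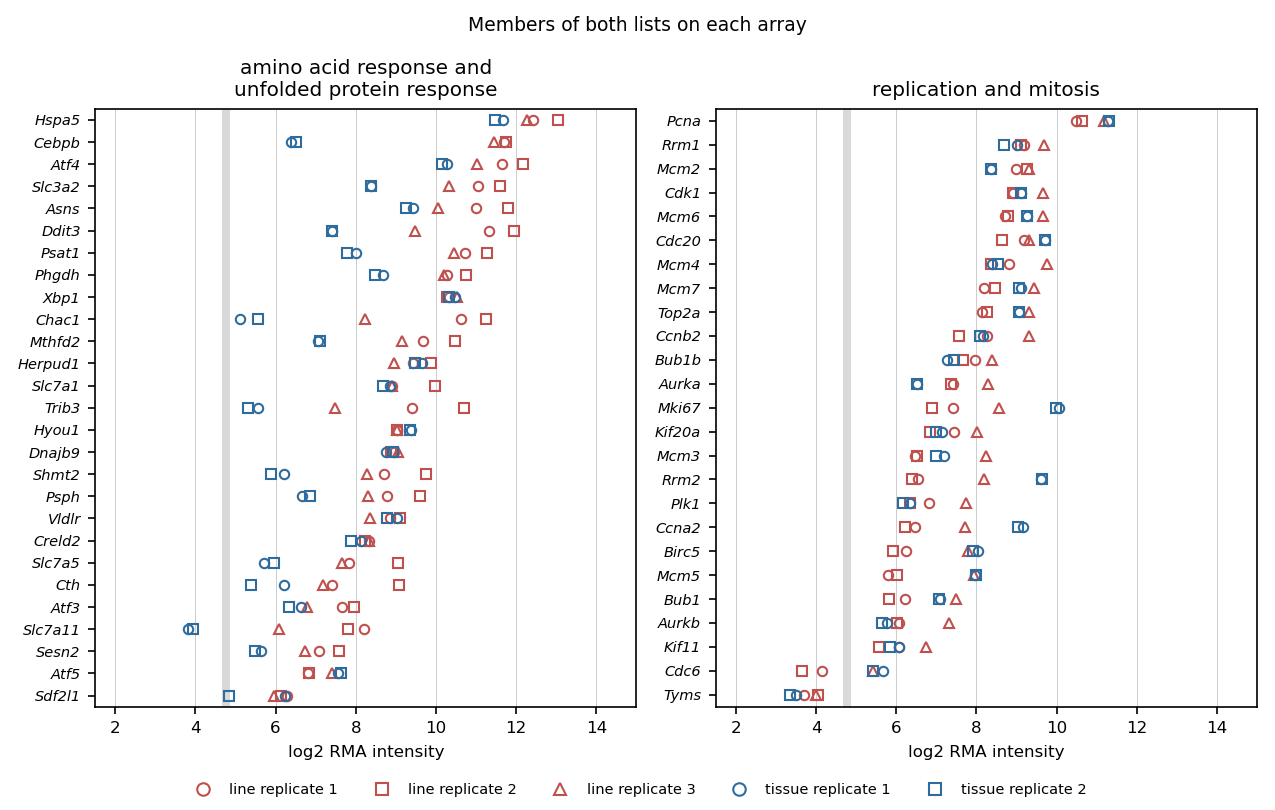
Log2 RMA intensity (x axis) of the tested members of 2 gene lists, 1 symbol per array, ordered by the mean of the line; the grey band spans the medians of the 5 arrays. Line replicate 3 (triangles) lies lowest of the line arrays in 21 of 27 amino acid response genes and highest in 24 of 25 replication genes.

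The same line against tissue contrast was available in the tsA58 arrays, and the difference of the contrasts was tested. Over all genes, 2702 differed (20.3%). Among the 54 genes tested that led the comparison or were set as markers, 18 did, and part of these were chosen for their large change in C57BL/6J. Ddx4 rose in the C57BL/6J line and not in the tsA58 line (6.15 ± 0.48 against 0.53, a difference of 5.62 ± 0.64, adjusted p = 4.95e-04), and Olr1 differed too (5.69 ± 1.46, adjusted p = 0.0192), though not without tissue replicate 1 or 2 (adjusted p = 0.0664 and 0.07). Icam1, Fgf7 and Cebpb rose more in the C57BL/6J line. Snai2 (-5.01 ± 0.83) and Mki67 (-5.16) were lower relative to tissue in this line than in the tsA58 line, where they stood at 4.40 and 2.77. Mki67 averaged 7.63 in the C57BL/6J line and 10.02 in its tissue, and 9.61 and 6.84 in the tsA58 line and tissue. The difference for Mki67 lost its call without any 1 of 7 arrays (adjusted p from 0.0548 to 0.0989). The strains, the transgene, the temperature and the clones differ together and cannot be told apart.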

How the data were processed

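RNA of the line and of tissue was hybridised to Affymetrix mouse expression arrays. The authors deposited log2 values from robust multi-array averaging (RMA), per the submitters' processing notes (version: not given in the sources used here). Probe sets with 1 gene symbol were kept, and each gene took its brightest one by mean over all 11 arrays. The test covered genes that exceeded the array median on at least 2 arrays, 13285 in all. Limma 3.58.1 (R 4.3.3) fitted 4 group means to all 11 arrays, so the spread is shared with the tsA58 arrays (7 residual degrees of freedom). No source says that arrays of a group come from separate cultures or animals, so p-values may measure technical spread only. Precision is limited by the number of arrays. On simulated data with 13285 genes, 62% of changes of 1.5 and 92% of changes of 3 (log2) were recovered for this comparison, and 5 unchanged genes were called. Only 100 genes were changed by each size there, whereas 34.1% of genes were called in the data. The adjusted p thus sets a different bar in the data, and these rates may not hold for it. Tables used pandas 2.3.3 and numpy 2.4.6 in Python 3.11.15, and plots matplotlib 3.10.9.

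Members and gene lists were chosen with earlier results of these data known. Genes were picked by rule: the 12 called genes with the largest change each way (uncharacterised models passed over), up to 4 called members per list and direction, and 36 fixed markers, of which 33 had a probe set. Not every gene picked is described. The fixed markers Etv1, Sox10 and Vim and the list members Vip and Ret are among those left out. Some genes outside the rule, such as Cnn1 and Csf1r, are named as well, so the naming was in part a choice. Promoters were matched by symbol. Alternatives were the filter, normalization, scaling, fit, probe set rule and leaving out each array.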

Additional observations from a re-analysis of the deposited data

Results flagged for a closer look

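The change from tissue to line differed between C57BL/6J and tsA58 for 18 of 54 genes tested that led the comparison or were set as markers, by limma's contrast of the contrasts, with adjusted p below 0.05 and a difference of at least 2-fold. Over all genes 2702 of 13285 differed (20.3%), and part of the 54 were chosen for the largest change in C57BL/6J, which itself favours a difference, so the share is a description. Each value here is the C57BL/6J log2 fold change minus the tsA58 one. Among the leading genes, Olr1 (5.69), Ddx4 (5.62), Fgf7 (3.07), Icam1 (2.95) and Cebpb (2.83) were more positive in C57BL/6J, and pepsinogen Pga5 was more negative (-4.60). The muscle genes Des (2.66) and Myh11 (1.30) and the stomach factor Barx1 (2.08) fell less from tissue to line in C57BL/6J. Des averaged 5.88 in the C57BL/6J line and 5.69 in the tsA58 line, and 10.02 and 12.49 in their tissues. Barx1 averaged 4.90 and 4.19 in these lines and 9.10 and 10.47 in the tissues, and Myh11 4.27 and 3.73, and 12.18 and 12.94. A difference of contrasts can thus lie in the tissue arrays as well as in the lines. Of stromal genes, Mmp2 (3.36), Pdgfra (2.64), Thy1 (2.59) and Fn1 (1.64) were more positive. Thy1 averaged 4.15 and 3.72 in the C57BL/6J and tsA58 lines, and 6.97 and 9.12 in their tissues. Snai2 (-5.01), Mki67 (-5.16), Cd44 (-1.48), Igf1r (-1.59) and Hmga2 (-1.59) were more negative. The differences for Pga5, Pdgfra, Igf1r, Hmga2, Cd44 and Mki67 lost their call under several alternatives, among them the omission of either C57BL/6J tissue array, which also ended that of Olr1. The difference for Fn1 lost its call without tissue replicate 2 (1.53, adjusted p = 0.0637), with centring on the hybridisation controls (adjusted p = 0.16) and with the mean of all probe sets (0.94, adjusted p = 0.169). Those for Barx1 and Myh11 lost theirs with that centring (adjusted p = 0.0672 and 0.265).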

How the results depend on the processing

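The scaling mattered most. With centring on the hybridisation controls, 5148 genes were higher and 723 lower. List counts of genes lower were then 2 for ICC, 1 for progenitors, 9 for neurons, 4 for glia, 6 for macrophages, 1 for endothelium, 11 for pancreas, 1 for skeletal muscle, 0 for blood, 5 for channels, 0 for caveolae, 1 for cadherins, 8 for mesenchyme factors, 2 for stem cell surface proteins, 3 for collagens, 5 for integrins, 4 for TGF-beta and 1 for Notch. Counts of genes higher were 4 for mesothelium, 8 for Hox, 10 for YAP, 5 for oncofetal, 9 for replication, 8 for clock and 5 for prostaglandin genes. Fold changes turned for Cd34 (1.09), Herpud1 (1.11), Igf1r (1.34e-04), Myl6 (0.66), Pdgfra (0.56), Snai2 (0.63) and Vldlr (1.10), and strain differences for Gkn2 (0.083), Bex1 (0.14) and Cdkn2a (0.24). Calls of Acta2, Actc1, Adam12, Adam19, Alas2, Cav3, Cldn5, Csf1r, Gpr20, Hoxc4, Il15, Jag1, Mmp23, Notch1, Rb1, Slc12a2, Tcf4 and Thy1 ended. The cause was not tested. Cyclic loess gave 5 lower caveolar genes, and 1 Hox, 3 growth factor receptor and 8 ribosome biogenesis genes higher, and Insr turned (-0.14). Quantile normalization gave 4 growth factor receptors, and the stricter filter left 0 blood genes. With only the 5 C57BL/6J arrays, counts were 3 for mesothelium, 1 for replication and 7 for clock genes. The actin covariate gave 3 mesothelial genes and turned Insr (-0.0044). The mean of all probe sets gave 1 lower cadherin gene, turned Pdgfra (0.15), Herpud1 (0.11) and the strain difference of Kitl (0.15), and ended calls of Asns, Atp2a2, Csf1r, Hand2, Jag1 and Rb1. Arrays sharing a replicate number did not deviate together (correlations from -0.0177 to 0.0177), so they were not treated as paired. The replicate block gave 2336 higher and 2140 lower genes and turned Vldlr (0.073). Leaving out 1 array gave 2070 to 2376 higher and 1824 to 2268 lower genes. List counts ran from 3 to 8 for growth factor receptors, 1 to 4 for plasminogen, 3 to 12 for pancreas, 6 to 13 for metalloproteinases, 1 to 4 for cadherins, 5 to 8 for collagens, 7 to 12 for G1, 2 to 6 for clock, 1 to 3 for mesothelium and 0 to 1 for replication genes. Fold changes then ran from -0.25 to 0.023 for Cd34, -0.35 to 0.11 for Herpud1, -0.19 to 0.55 for Insr, -7.78 to 0.24 for Krt13, -6.27 to 0.53 for Sprr3 and -0.30 to 0.077 for Vldlr, and strain differences from -0.18 to 0.64 for Insr and -0.063 to 0.65 for Lum.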
